A study of Rattus norvegicus with 24 samples.

Results

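The comparison described here is the response of the rat ventral striatum to MK-801 at 0.16 mg/kg, set against saline. It rests on 2 of the 24 arrays of the series, chosen by their titles: both hybridised RNA of high-dose rats together with that region's RNA from saline rats, with opposite dyes. The study gave male Wistar rats an intraperitoneal injection of saline or of MK-801, whose low dose was 0.08 mg/kg and whose high dose was 0.16 mg/kg. Brains were removed 40 min later and dissected into the ventral striatum and 5 other regions (hypothalamus, hippocampus, amygdala, midbrain and cerebral cortex). There were 9 rats in all, and 3 received saline. No genetic change or other treatment is named. Their age was 9 weeks by the labels of the samples, but 10 weeks by the series' description. The number of rats behind an extract is not stated, so a pair of dye-swapped arrays was counted as 1 replicate, and a spread over 2 arrays here is a spread between dyes and hybridisations and not between animals.

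MK-801 (dizocilpine) blocks the open channel of the NMDA receptor, a glutamate-gated cation channel that lets calcium into neurons. The ventral striatum, which includes the nucleus accumbens, consists mainly of GABAergic projection neurons that receive glutamate from cortex, hippocampus, amygdala and thalamus and dopamine from the midbrain. NMDA receptor blockers raise locomotor activity in rodents, and this region belongs to the circuit through which they do so. Immediate early genes are transcribed within minutes of a stimulus, without prior protein synthesis, in neurons but also in endothelial and other cells.

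A log2 ratio below is log2 of the treated signal over the saline signal, so 1 means a 2-fold higher signal and -1 a 2-fold lower one. A gene counted as measured when its brightest probe was well above background on both arrays in the treated or the saline channel, and as higher or lower when its mean ratio was at least 1.5-fold (0.585 on the log2 scale) with 1 sign on both arrays. With 1 replicate this rule is a size and carries no p-value. Of 35525 features 23742 were measured, and 11661 of the measured ones carry a gene symbol. Of the measured features 21 (0.0885%) were higher and 18 (0.0758%) lower in MK-801 ventral striatum than in saline ventral striatum. The smallest mean inside the rule was 0.59 among the higher genes and -0.63 among the lower genes, while the nearest means outside it with 1 sign on both arrays were 0.58 and -0.58.

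The tissue label was checked against defining markers. On the saline channels, 29 of 29 measured markers shared by striatal projection neurons were brighter in the ventral striatum than in the mean of the other 5 regions. Their median difference was 2.41 on the log2 scale. Of direct pathway neuron markers 9 of 10 were brighter (median 1.73), and of indirect pathway neuron markers 6 of 8 (median 1.18). Rgs9, a regulator of G protein signalling and a shared marker, stood 5.70 above the other regions. The adenosine receptor Adora2a (indirect pathway) stood 5.32 above them and the dopamine receptor Drd1 (direct pathway) 3.95. The median net signal of the 4 channels lay between 47.4 and 205 intensity units, and between 64.6% and 81.5% of spots were well above background. Ratios of both arrays correlated at -0.29 over the 23742 genes and at 0.24 once each gene's dye effect on the other arrays had been taken out, and both arrays had the same sign in 34.4% of genes. The median size of a ratio was 0.0557 and the median SD of the 2 arrays 0.134, so a small ratio here is within the spread of the pair. Among genes past 1.5-fold on the mean the correlation was 0.94, a value that the choice of large means raises.

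A small stretch of the second array stood apart. In a block of adjoining spots, 19 of 51 spots that are not controls were more than 1.5-fold lower on array 2, against 0 on array 1. The median of the block was -0.20 on array 2 and -0.01 on array 1. Sh2d5 and Foxp3 lie in it. Sh2d5, a neuronal adaptor protein gene, had -0.23 on array 1 and -1.503 on array 2, and Foxp3, the transcription factor of regulatory T cells, had -0.08 and -1.30. Both count as lower by the rule, but with the scanner software's processed signals their means were 0.10 for Sh2d5 and 0.52 for Foxp3. Results that include spots of the block are given with and without them, and without them 16 genes were lower.

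**Figure D1:**
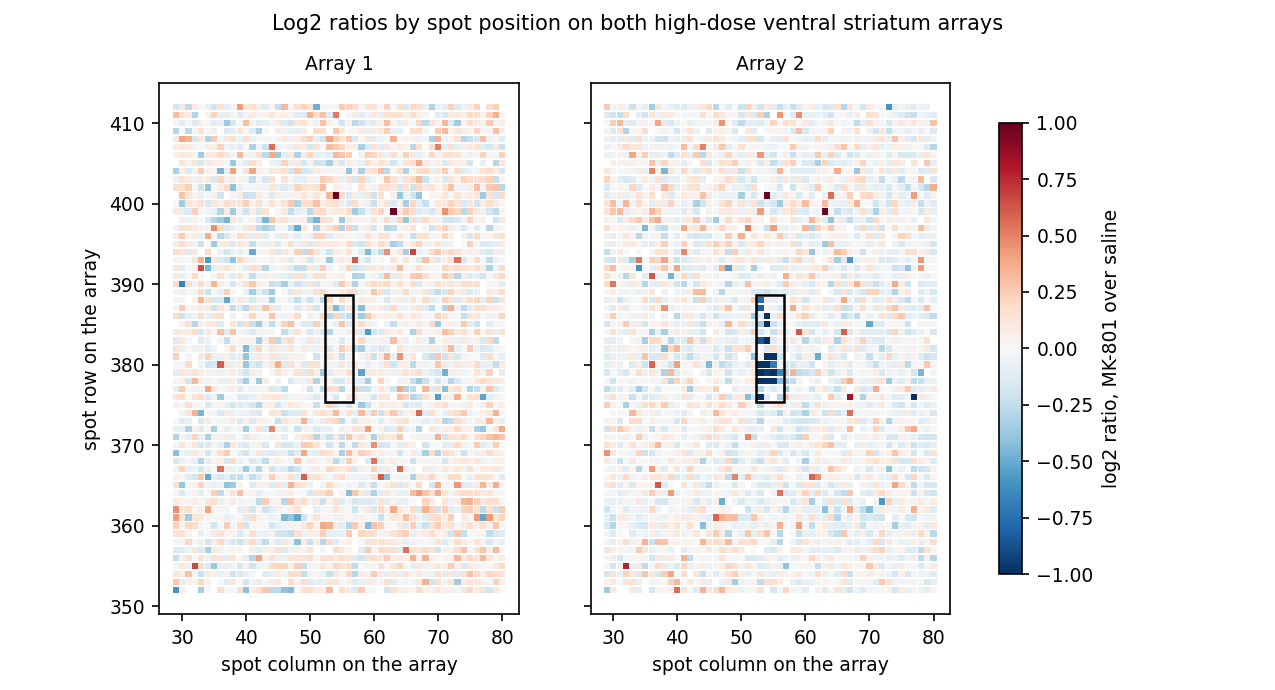
Log2 ratio of MK-801 over saline at each spot, by spot column (x axis) and spot row (y axis), on array 1 (left) and array 2 (right) around the block outlined in black. Inside the outline 19 of 51 spots are more than 1.5-fold lower on array 2, against 0 on array 1.

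The highest ratios were those of early response genes. Ccn1, formerly Cyr61, encodes a secreted matrix protein that binds integrins, and had log2 ratios of 3.72 and 4.15 on the 2 arrays. Its mean of 3.94 ± 0.30 (SD, n = 2 arrays) was a 15.3-fold higher signal in MK-801 ventral striatum and the largest ratio of any measured gene. At the low dose it stood at 2.37 and 2.78, and both doses were set against the saline rats of the same region. A second, dimmer Ccn1 probe had 1.89 and 2.01 on the high-dose arrays and a low-dose mean of 1.03, so both probes were far above 0 but differed in size. Both Ccn1 probe sequences are shown because they gave ratios of different size.
Ccn1 brightest probe (chr2:243811128-243811187, rn3): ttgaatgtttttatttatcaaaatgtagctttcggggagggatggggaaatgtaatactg
Ccn1 dimmer probe (chr2:243811662-243811721, rn3): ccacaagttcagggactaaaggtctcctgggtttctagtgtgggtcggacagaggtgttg

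Apold1, an endothelial early response gene, had 2.28 and 2.08 on the high-dose arrays, with a low-dose mean of 1.10. Atf3, a stress-inducible transcription factor of the CREB family, had 2.24 and 1.82 at the high dose, but 0.54 and -0.06 at the low dose. Its high-dose mean exceeded its low-dose mean by 1.79, more than Ccn1 (1.36) and Apold1 (1.08), and its low-dose arrays lay on both sides of 0. Btg2, an antiproliferative gene induced by growth factors and p53, had 1.83 and 1.78, against a low-dose mean of 0.84. These 4 genes had both high-dose arrays above both low-dose arrays.

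Further transcription factors were Klf4 and Klf2, Krüppel-like factors of endothelium, at 1.35 ± 0.29 and 1.01 ± 0.04, and Jun, a subunit of AP-1, at 0.92 ± 0.26 (SD, n = 2 arrays each). Ier2 encodes a nuclear early response protein and had 1.29 and 1.02. Cebpd, a C/EBP factor responsive to glucocorticoids and cytokines, had 0.64 and 0.83. Dusp1, the phosphatase that switches off MAP kinases, had 0.96 and 1.13, and was the only 1 of 13 measured MAP kinase phosphatase and ERK feedback genes past 1.5-fold. The share higher over all measured features was 0.0885%. Sgk1, a kinase induced by glucocorticoids, had 0.67 and 0.77. Low-dose means of these genes ran from 0.33 for Cebpd to 0.67 for Klf4.

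The remaining higher genes with a symbol were Abcg2, the efflux transporter of brain capillaries (0.98 and 0.69), Depp1, a FOXO-induced autophagy regulator (1.03 and 0.64), Adamts1, a secreted metalloprotease (0.61 and 0.88), Ccn2, a matrix protein related to Ccn1 (0.61 and 0.58), and Ttr, the thyroxine carrier of choroid plexus (1.02 and 0.55). Ch25h, cholesterol 25-hydroxylase, had 0.71 and 0.53, and is named here after its values were seen. Adamts1 was well above background in the saline channel on only 1 array, and counted as measured through the treated channel. Its mean ran from 0.67 to 1.595 over the alternatives with both arrays. With both channels required to be well above background it dropped out, and 20 features were higher. Abcg2 differed little between doses, with means of 0.83 (high dose) and 0.75 (low dose). The 4 higher features without a symbol had means between 0.90 and 1.36.

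**Figure D2:**
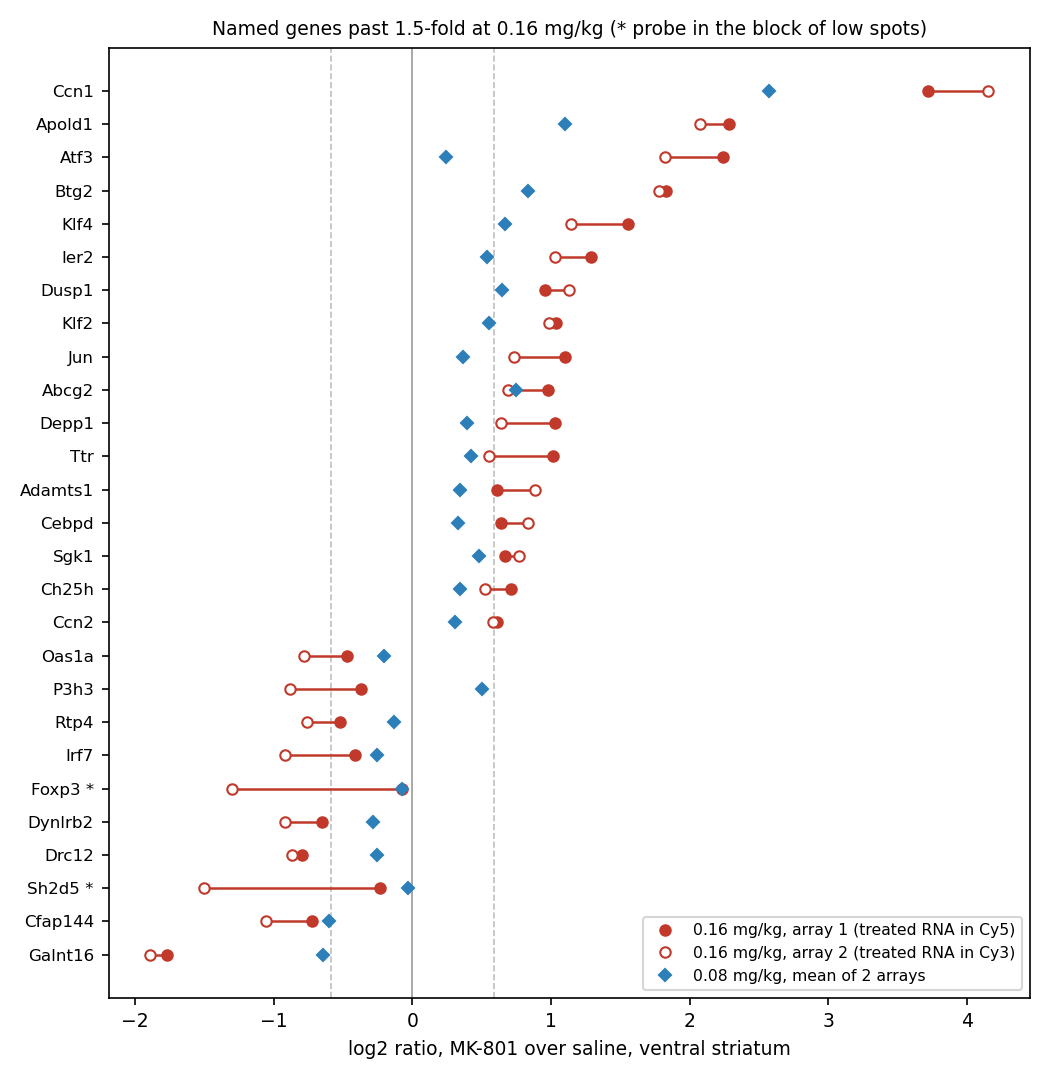
Log2 ratios (x axis) of the 27 named genes past 1.5-fold in the ventral striatum (y axis), with filled and open red circles for the 2 high-dose arrays and blue diamonds for the low-dose mean. Ccn1 stands at 3.72 and 4.15, Galnt16 at -1.77 and -1.89, and the widest gaps between arrays are those of Sh2d5 and Foxp3, whose probes lie in the block of low spots (asterisks).

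The early response lists were uneven. Of 31 measured immediate early transcription factors 6 were higher and 0 lower, with a median of 0.10 beside 0.003 over all measured genes. Of 29 immediate early effectors and growth-arrest genes 4 were higher (Ccn1, Btg2, Sgk1 and Ccn2) and 0 lower, but 19 lay below 0 and the median was -0.08. Of 14 endothelial early response genes 6 were higher, with a median of 0.29. That median depended on the processing, at 0.022 with no filter on dim probes and 0.52 with the scanner software's processed signals. Of 20 glucocorticoid-responsive genes 3 were higher (Dusp1, Cebpd and Sgk1), with 17 above 0 and a median of 0.22. These lists overlap. Among 22 markers of endothelial cells as a type, 1 (Abcg2) was higher and the median was 0.03.

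Several members of the immediate early lists that are known for induction by neuronal activity did not reach 1.5-fold, and the following are examples rather than a list of their own. Egr2, a zinc finger factor induced by synaptic activity, had -0.38 and -0.64 on the high-dose arrays, against -0.56 and -0.54 on the low-dose arrays. Egr1 had -0.21 and -0.29, with a low-dose mean of -0.38. Nrn1, the lowest of the effectors list, encodes neuritin, a small membrane-anchored protein induced by activity, and had -0.72 and -0.29, with a low-dose mean of -0.71. Arc, a regulator of AMPA receptor trafficking, had -0.14 and -0.07, and Bdnf, a neurotrophin, -0.12 and -0.29, with its other probe at -0.17 and -0.24. Fos had 0.23 and 0.59, Junb -0.17 and 0.33, Fosb 0.21 and -0.16, and Npas4, which was too dim to count as measured, 0.04 and 0.13. Egr4 was left out on array 1 as an outlier spot and had -0.20 on array 2. On the saline channels Egr4, Egr2 and Egr1 were brighter in the ventral striatum than on average elsewhere, by 2.69, 2.05 and 1.54 on the log2 scale.

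Other early response members had smaller ratios. Nr4a1, an orphan nuclear receptor induced by activity, had 0.14 and 0.23 in MK-801 ventral striatum, against means between 0.56 and 0.85 in the 3 other regions with a value, and was not tested. Homer1, a postsynaptic scaffold with a short activity-induced form, had -0.04 and -0.14 with its brightest probe and -0.73 and -0.13 with its other probe, which had a mean of -0.51 at the low dose. The feedback inhibitor Spry2 had -0.42 and -0.12. Ccl2, a chemokine that draws monocytes, had 0.56 and 0.58 and was the highest of 15 inflammatory genes. Its saline channel was well above background on only 1 array. Among glucocorticoid targets Tsc22d3 (GILZ), an anti-inflammatory leucine zipper protein, had 0.20 and 0.47, the clock gene Per1 -0.04 and 0.24, and the co-chaperone Fkbp5 0.21 and -0.04, so the list held members with 1 sign and members with opposed signs on the arrays.

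Probes of Nr4a3, an orphan nuclear receptor of the early response, went opposite ways. The brightest probe had -0.15 and -0.41 and a second -0.33 and -0.27, whereas the dimmest probe had 0.66 and 0.61 at the high dose. In the other 5 regions the means of the 3 probes were -0.04, 0.03 and 0.51, and at the low dose in the ventral striatum -0.49, -0.51 and 0.11. The dimmest probe lies apart from both others on chromosome 5, and no annotation of the rn3 build was used here to place it in an exon or untranslated region. The 3 sequences are given because the sign of the gene depends on the probe.
Nr4a3 brightest probe (chr5:64759221-64759280, rn3): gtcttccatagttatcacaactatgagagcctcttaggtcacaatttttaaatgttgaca
Nr4a3 second probe (chr5:64758249-64758308, rn3): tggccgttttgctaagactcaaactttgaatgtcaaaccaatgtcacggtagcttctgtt
Nr4a3 dimmest probe (chr5:64732396-64732455, rn3): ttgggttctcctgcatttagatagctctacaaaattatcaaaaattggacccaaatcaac

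Promoters of the higher genes with a symbol were searched for known motif letters on both strands. The RefSeq windows had 300 bases (250 before and 50 after the gene start, GRCr8). Of 17 such genes 13 had a window, whereas Atf3, Jun, Klf2 and Cebpd had none and were not searched. The cAMP response element TGACGTCA, bound by CREB and ATF factors, was in 5 of 13 (Btg2, Ier2, Dusp1, Abcg2 and Ch25h; 38.5%), against 1.91% of all 27457 windows. Its core TGACG, which every full element also holds, was in 8 of 13, against 22.0% of all windows. The CArG box of serum response factor was in 0 of 13, against 1.64% of all windows, so 0 of 13 is near the share of all windows. It was present in the windows of Egr1 and Egr2, which are examples. No share was counted for early response genes that were not higher. Both Egr windows also hold the core TGACG, on the opposite strand and not capitalised here, but not the full element. These are matches of letters in a short window, and binding was not measured. The windows of Btg2, Ier2, Dusp1 and Egr2 are shown, with the full element in capitals in the first 3 and the CArG box in capitals in the last.
Btg2 (chr13:48087641-48087940, minus strand, GRCr8): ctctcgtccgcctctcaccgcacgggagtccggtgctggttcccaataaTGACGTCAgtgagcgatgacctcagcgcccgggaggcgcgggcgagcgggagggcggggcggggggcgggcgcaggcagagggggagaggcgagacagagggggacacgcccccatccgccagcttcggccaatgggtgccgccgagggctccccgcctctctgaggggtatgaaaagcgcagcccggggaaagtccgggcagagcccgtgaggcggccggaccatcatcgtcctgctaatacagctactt
Ier2 (chr19:40399123-40399422, plus strand, GRCr8): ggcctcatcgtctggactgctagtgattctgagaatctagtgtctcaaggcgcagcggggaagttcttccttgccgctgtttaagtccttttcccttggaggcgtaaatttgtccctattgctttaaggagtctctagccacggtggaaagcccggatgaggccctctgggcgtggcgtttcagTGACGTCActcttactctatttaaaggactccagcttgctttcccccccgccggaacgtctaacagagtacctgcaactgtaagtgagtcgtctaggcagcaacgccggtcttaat
Dusp1 (chr10:17184603-17184902, plus strand, GRCr8): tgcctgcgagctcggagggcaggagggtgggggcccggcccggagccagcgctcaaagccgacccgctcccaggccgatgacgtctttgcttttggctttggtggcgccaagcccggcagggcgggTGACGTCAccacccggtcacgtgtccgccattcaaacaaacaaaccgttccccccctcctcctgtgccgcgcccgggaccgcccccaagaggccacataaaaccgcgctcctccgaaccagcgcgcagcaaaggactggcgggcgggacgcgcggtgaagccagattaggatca
Egr2 (chr20:21054392-21054691, minus strand, GRCr8): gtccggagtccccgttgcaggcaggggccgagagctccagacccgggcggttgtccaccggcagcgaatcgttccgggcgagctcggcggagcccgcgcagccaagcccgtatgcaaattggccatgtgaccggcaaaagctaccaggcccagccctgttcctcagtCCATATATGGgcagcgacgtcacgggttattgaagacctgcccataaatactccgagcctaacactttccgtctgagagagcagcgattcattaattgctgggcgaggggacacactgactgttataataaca

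The lowest ratio was that of Galnt16, which encodes an enzyme attaching the first sugar of mucin-type O-glycans. It had -1.77 and -1.89 on the high-dose arrays, and -0.76 and -0.53 on the low-dose arrays. The high-dose mean of -1.83 ± 0.08 (SD, n = 2 arrays) was close to the other regions, where means ran from -2.24 in the amygdala to -1.78 in the midbrain. Galnt16 had 1 probe, whose coordinates span more than its 60 bases.
Galnt16 probe (chr6:104363509-104367590, rn3): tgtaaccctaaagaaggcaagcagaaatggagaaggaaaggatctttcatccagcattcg

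P3h3, a collagen prolyl hydroxylase, had -0.37 and -0.88 on the high-dose arrays but 0.75 and 0.26 on the low-dose arrays. Its low-dose arrays thus lay on the other side of 0. Its other probe was not well above background and had 0.04 and 0.07 at the high dose. In the other 5 regions the high-dose means of the bright probe were between -0.92 and -0.63. Both sequences are shown since the result rests on the first.
P3h3 brightest probe (chr4:161209246-161209305, rn3): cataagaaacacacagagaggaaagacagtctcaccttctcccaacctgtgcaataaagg
P3h3 dim probe (chr4:161223203-161223262, rn3): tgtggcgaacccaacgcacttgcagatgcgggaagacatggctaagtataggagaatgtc

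Most interferon-stimulated genes had ratios below 0. Irf7, the transcription factor that amplifies type I interferon, had -0.41 and -0.92. Rtp4, an interferon-induced chaperone of receptors, had -0.52 and -0.76, and Oas1a, an antiviral oligoadenylate synthetase, -0.47 and -0.78. Isg15, a ubiquitin-like protein, had -0.55 and -0.61 and did not reach 1.5-fold. Of 23 measured members 3 were lower and 0 higher, 19 lay below 0 and the median was -0.16, against 0.003 over all measured genes. Over all measured features 0.0758% were lower, and this list too was chosen with earlier results of these data known. The list median at the low dose was -0.07, and those of the other 5 regions at the high dose ran from -0.24 to -0.11. The microglial marker list had a median of 0.06 and no member past 1.5-fold, and its part in the result was not tested.

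Class I histocompatibility genes, whose products show peptides to CD8 T cells, had a median of -0.22, with 14 of 18 below 0 and none past 1.5-fold. Many are near-identical copies and their probes may share transcripts, so they are uncertain as single genes. Their median was -0.32 on array 1 and -0.07 on array 2. The letters of the interferon-stimulated response element, GAAA, any 2 bases and GAAA again, were in 10 of 15 promoter windows of the measured interferon list (66.7%), against 3.77% of all windows. The list holds genes known to be stimulated by interferon, so this share goes with how they were chosen and does not bear on their ratios. The window of Irf7 is shown with the element in capitals.
Irf7 (chr1:205799974-205800273, minus strand, GRCr8): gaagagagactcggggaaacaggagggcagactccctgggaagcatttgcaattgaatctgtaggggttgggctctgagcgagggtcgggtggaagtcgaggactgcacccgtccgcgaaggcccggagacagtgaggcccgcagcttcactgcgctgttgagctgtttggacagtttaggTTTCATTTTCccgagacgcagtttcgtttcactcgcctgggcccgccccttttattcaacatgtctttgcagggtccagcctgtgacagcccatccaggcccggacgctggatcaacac

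Genes of motile cilia were among those in which the ventral striatum differed from the other regions. Motile cilia are beating appendages that in brain are carried by the ependymal cells lining the ventricles. Their axoneme holds dynein arms, radial spokes and a dynein regulatory complex, and FOXJ1 and RFX factors drive their genes. Cfap144, a cilia and flagella associated protein, had -0.73 and -1.05 in MK-801 ventral striatum, and means between 0.07 and 0.50 in the other regions. Drc12, a subunit of the dynein regulatory complex, had -0.79 and -0.87, and its other probe -0.47 and -0.73. Dynlrb2, a dynein light chain of the roadblock type, had -0.65 and -0.92. Dnah1, not past 1.5-fold, is a heavy chain of the inner dynein arms and had -0.44 and -0.71, while its second probe had 0.26 and -0.12. The brightest Dnah1 probe was well above background in the treated channel on only 1 array, and counted as measured through the saline channel. With both channels required to be well above background, Dnah1 was not tested.

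The probes of the 3 cilia genes that were lower by the rule are shown with both probes of Drc12 and both of Cfap126, a further cilia gene, named after its values were seen, whose brightest probe had -0.24 and -0.37 and whose other probe had -0.83 and -0.95.
Cfap144 probe (chr10:45036002-45036061, rn3): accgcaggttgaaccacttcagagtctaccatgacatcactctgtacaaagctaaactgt
Dynlrb2 probe (chr19:46551906-46552680, rn3): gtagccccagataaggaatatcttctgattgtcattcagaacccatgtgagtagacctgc
Drc12 brightest probe (chr8:47232252-47233393, rn3): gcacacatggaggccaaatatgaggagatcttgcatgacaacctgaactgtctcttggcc
Drc12 second probe (chr8:47233635-47233694, rn3): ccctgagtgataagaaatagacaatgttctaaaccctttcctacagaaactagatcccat
Cfap126 brightest probe (chr13:87200513-87200572, rn3): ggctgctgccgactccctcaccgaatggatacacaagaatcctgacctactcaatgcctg
Cfap126 second probe (chr13:87201220-87201279, rn3): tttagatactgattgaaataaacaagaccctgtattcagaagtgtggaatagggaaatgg

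To test the difference between regions, the high-dose mean of the ventral striatum was set against those of the other 5 regions in limma across 20081 genes (n = 1 region against 5), which assumes that the ventral striatum would vary as the other regions do. The regions were dissected from the brains of the same 9 rats, so they are not independent animals, and the p-values do not measure the spread between animals. At an adjusted p under 0.05, 18 genes (0.0896%) differed, all of them lower in the ventral striatum, 7 with a symbol. None were higher, and 1022 genes had an unadjusted p under 0.05. The difference of ventral striatum minus the other regions was -1.09 ± 0.13 for Cfap144 (SE, limma adjusted p = 0.0162), -0.89 ± 0.11 for Dynlrb2 (limma adjusted p = 0.0182), -0.81 ± 0.12 for Drc12 (limma adjusted p = 0.0374) and -0.58 ± 0.08 for Dnah1 (limma adjusted p = 0.0283). Trim54, a striated muscle ubiquitin ligase, had a difference of -0.61 ± 0.09 (limma adjusted p = 0.0390), and had -0.60 and -0.51 on the high-dose arrays, with a low-dose mean of -0.84. Sh2d5 and Foxp3 passed as well, at -0.83 and -0.68, but their spots and those of 5 of the 11 features without a symbol lie in the block described above. Without the block 8 genes differed, and among those with a symbol Cfap144, Dynlrb2 and Dnah1 passed, whereas Drc12 (limma adjusted p = 0.0558) and Trim54 (limma adjusted p = 0.0601) did not.

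Each region was hybridised on a slide of its own, so slide and region cannot be told apart. Ventral striatum and cortex were scanned on the same day, and within that day Cfap144, Drc12, Dynlrb2 and Dnah1 had differences of ventral striatum minus cortex of -1.08, -0.86, -0.88 and -0.57 on the log2 scale. With scan day as a block, or with median centring in place of loess, 0 genes passed (693 and 364 with an unadjusted p under 0.05 by limma). The 18 calls became 10 with array 2 alone and 3 with array 1 alone, and of the 7 genes with a symbol none passed with array 1 alone, where Cfap144 and Dynlrb2 both had a limma adjusted p of 0.0515. With array 2 alone Sh2d5, Foxp3 and Drc12 passed, and Cfap144 had a limma adjusted p of 0.0808. Leaving out cortex, hippocampus or hypothalamus reduced the count to 8, 8 and 11. With the mean over probes the difference of Dnah1 was -0.26 (limma adjusted p = 0.87), and with the processed signals Dnah1 had -1.60 (limma adjusted p = 0.0356), while Cfap144, Dynlrb2 and Drc12 no longer passed.

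A list of motile cilia genes was drawn up after these values were seen, so its numbers are a description. Of 159 listed genes 96 were on the array and 72 were measured. Their median was -0.09 in MK-801 ventral striatum, with 54 below 0, on array 1 -0.09 and on array 2 -0.11. Median values of the same genes ran from -0.01 to 0.06 in the other 5 regions, and the median at the low dose was -0.06. The ventral striatum was the lowest of 6 regions for 38 of the 72, against 3519 of all 23742 measured genes. Foxj1, the factor that switches on the motile cilia programme, had -0.45 and -0.60 in the ventral striatum, against region means between -0.06 and 0.48 elsewhere (adjusted p = 0.829 by limma for the difference). Capsl, Dnali1 and Cfap45, like Foxj1 named after their values were seen, had means of -0.53, -0.47 and -0.38. Cfap206 was the highest at 0.30, with 0.37 in the other regions. In bulk tissue, fewer ciliated cells and less RNA per cell cannot be told apart.

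The lower ratios were not restricted to the ventral striatum when both doses are considered. At the low dose the midbrain had -0.44 for Cfap144, -0.56 for Drc12, -0.53 for Dynlrb2 and -0.41 for Dnah1, against -0.60, -0.26, -0.28 and -0.22 in the ventral striatum at that dose. Low-dose values of these 4 genes in the other 4 regions lay between -0.23 and 0.11.

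Genes of intraflagellar transport, the cargo system that motile and primary cilia share, had ratios on both sides of 0. The 32 measured members, a list also chosen after the values were seen, had a median of 0.002, with 16 below 0, and ran from -0.15 to 0.14. The dynein light chain gene Dynlrb2, at -0.79, was placed in the motile cilia list and not in this one, so the range given leaves it out. That placement was made after the values were seen. The letters GTTGCC, a core of the motif of RFX factors, were in 30 of 62 promoter windows of the motile cilia genes (48.4%), in 14 of 28 of intraflagellar transport genes and in 12.2% of all windows. Both lists hold genes chosen for a role in cilia, so these shares do not bear on their ratios. The window of Cfap144 holds GTTGCC 3 times, shown in capitals.
Cfap144 (chr10:44019232-44019531, minus strand, GRCr8): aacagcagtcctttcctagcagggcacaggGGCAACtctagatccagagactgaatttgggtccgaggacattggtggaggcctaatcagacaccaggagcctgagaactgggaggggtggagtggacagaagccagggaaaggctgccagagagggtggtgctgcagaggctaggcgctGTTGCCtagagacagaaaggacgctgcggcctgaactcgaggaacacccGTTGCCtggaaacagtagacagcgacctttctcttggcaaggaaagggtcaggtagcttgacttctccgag

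**Figure D3:**
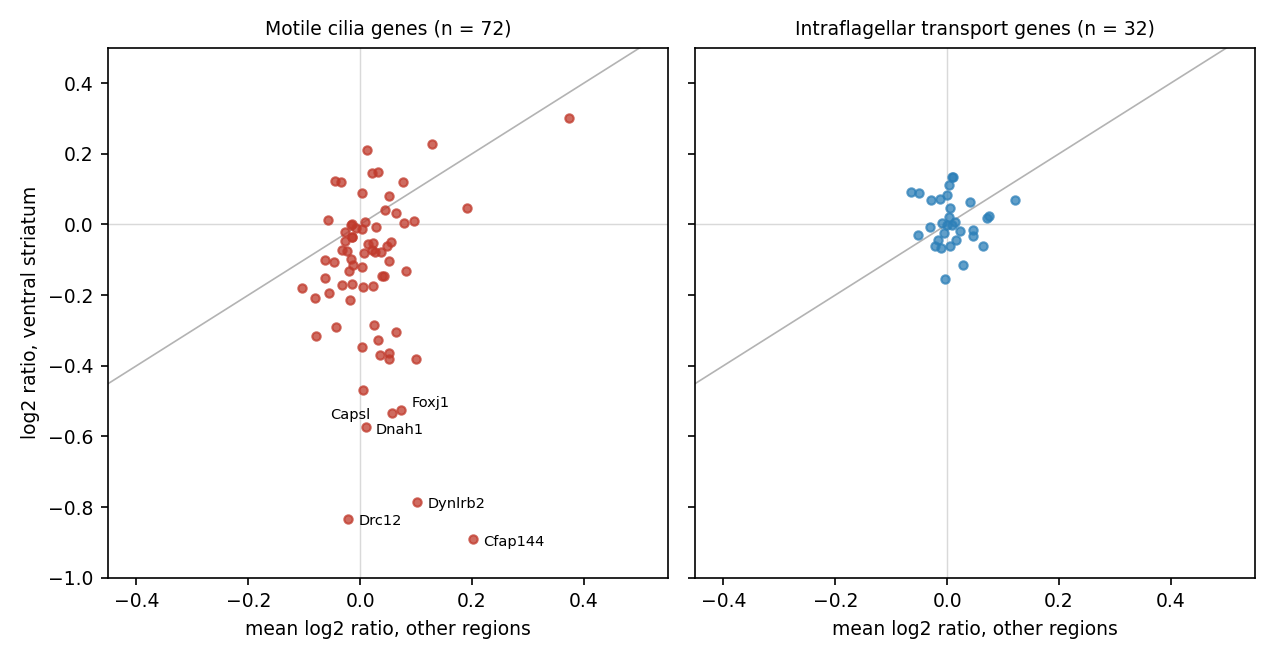
Log2 ratio in MK-801 ventral striatum (y axis) against the mean of the other regions at 0.16 mg/kg (x axis) for 72 motile cilia genes (left) and 32 intraflagellar transport genes (right), 1 point a gene. The grey diagonal marks equal values. Cfap144, Drc12 and Dynlrb2 lie lowest, at -0.89, -0.83 and -0.79.

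Choroid plexus lies in the ventricles and ependyma lines them, next to the striatum. In the choroid plexus and ependyma list of 14 measured genes 1 was higher (Ttr) and 1 lower (Dynlrb2), 10 lay below 0 and the median was -0.10. The shares over all measured features were 0.0885% higher and 0.0758% lower. On the saline channels the list was dimmer in the ventral striatum than elsewhere, with a median difference of -0.41. Ttr had a mean of 0.78 in the ventral striatum, but from -2.62 in the hippocampus to 1.34 in the amygdala elsewhere. Other choroid plexus markers, named after their values were seen, had 0.25 for Sostdc1, 0.12 for Kcne2, 0.02 for Clic6 and -0.19 for Folr1. The part of tissue dissection in the values of Ttr and of the cilia genes was not tested.

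Among the early response genes named above, none that was tested passed the test between the ventral striatum and the other regions. Egr4, Npas4, Nr4a1 and Tsc22d3 lacked a value or were too dim, and were not tested. Ccn1 was 1.51 ± 0.96 above the other regions (SE, limma adjusted p = 0.993), where the midbrain was lowest at 0.65 and the cortex highest at 4.16. Apold1, Atf3 and Btg2 had differences of 0.30, 0.68 and 0.62, with limma adjusted p-values of 0.999, 0.999 and 0.993. In Ccn1, Atf3, Btg2, Klf4, Ier2, Klf2 and Jun the ventral striatum was second of the 6 regions, after the cortex. Abcg2 had 0.83 in the ventral striatum, against 0.54 to 0.74 in the other regions. Sgk1 lacked 1 region and was not tested, 1 of 3661 measured genes left out of the test because a region's value was missing or too few of the other regions were above background.

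**Figure D4:**
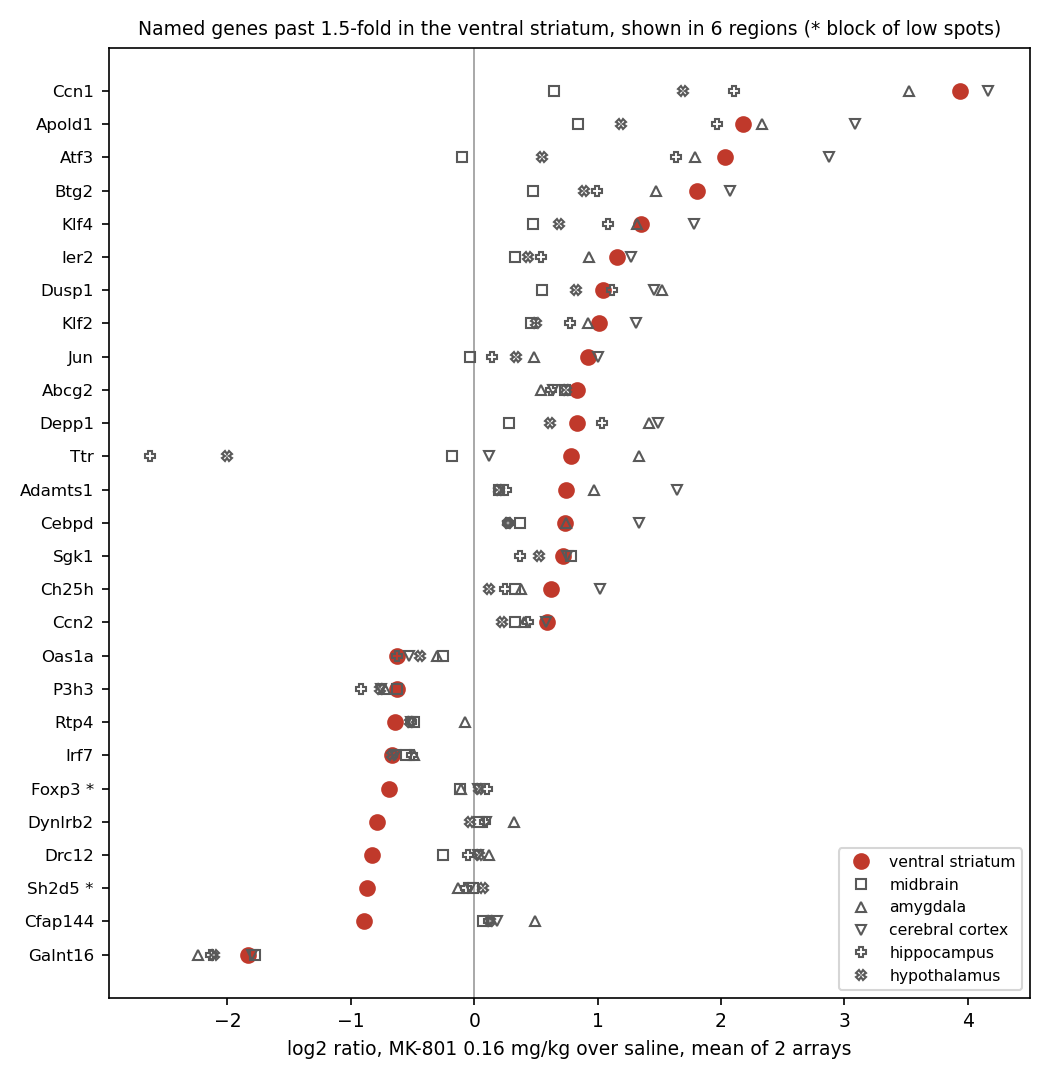
Mean log2 ratios at 0.16 mg/kg (x axis) of the 27 named genes (y axis) in the ventral striatum (red circles) and in 5 other regions (grey symbols). For Ccn1 the ventral striatum lies at 3.94 and the other regions between 0.65 and 4.16, while for Cfap144 it lies at -0.89 and the others between 0.07 and 0.50.

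A second test compared the step from the low to the high dose in the ventral striatum with the same step in the other 5 regions. Of 18677 genes 0 passed an adjusted p of 0.05 in limma, where 535 had an unadjusted p under 0.05 and the smallest adjusted p was 0.131. With a normexp offset of 16, 4 genes passed. By the fold rule alone, the low-dose arrays of this region had 16 higher and 17 lower genes of 24722 measured.

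Transcripts that define the striatum itself had ratios near 0. None of the 29 shared projection neuron markers was past 1.5-fold, and their median was 0.006. The dopamine receptors Drd1 and Drd2 had means of -0.09 and -0.02, the opioid precursors Penk and Pdyn 0.01 and -0.08, and the substance P precursor Tac1 0.01. Ppp1r1b (DARPP-32), the phosphatase inhibitor of dopamine signalling, had -0.55 on array 1 and 0.64 on array 2, and the phosphodiesterase Pde10a -0.22 and 0.51. Both had the same opposed signs at the low dose (-0.49 and 0.62 for Ppp1r1b), with the same dye for the treated RNA on each array number. Their high-dose means were 0.04 and 0.15 and their low-dose means 0.07 and 0.02. The wide spread of the 2 arrays includes this difference between dyes. The peptide precursor Cartpt was the lowest of the list, with -0.37 and -0.52 on the high-dose arrays, a low-dose mean of -0.28 and between -0.17 and 0.64 in the other regions (limma adjusted p = 0.976).

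Receptors for glutamate did not pass 1.5-fold. Grin1, the obligate NMDA receptor subunit, had 0.10 and -0.18, Grin2a 0.28 and -0.12, Grin2b -0.16 and 0.07, and Grin3a, too dim to count as measured, 0.31 and -0.01. The 21 measured NMDA receptor and postsynaptic genes had a median of -0.04 and ran from -0.11 to 0.11. Of 15 AMPA and kainate receptor genes 10 lay above 0, with a median of 0.05, and Cacng2, an AMPA receptor auxiliary subunit, was highest at 0.20. Dopamine signalling genes (17 measured) had a median of -0.003, and 28 peptide signalling genes -0.04. None of 21 interneuron markers passed 1.5-fold, with Sst at 0.12, Npy at 0.05 and Chat at 0.05.

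Other list members had ratios of 1 sign on both high-dose arrays. Vip, a vasoactive peptide of interneurons, had -0.22 and -0.43 at the high dose, with a low-dose mean of -0.57 and means between -0.10 and 0.32 in the other regions (limma adjusted p = 0.916). Gal, the galanin precursor, had -0.25 and -0.40, with a low-dose mean of -0.43 and other regions between -0.29 and 0.20 (limma adjusted p = 0.982). Slc35d3, a marker of direct pathway neurons, had -0.40 and -0.08, and a difference from the other regions at a limma adjusted p of 0.621. Pde1a, a calmodulin-dependent phosphodiesterase, had 0.22 and 0.24, with a low-dose mean of 0.28 and other regions no higher than 0.001 (limma adjusted p = 0.898). None of these reached 1.5-fold or passed the test between regions.

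None of the markers of oligodendrocytes, astrocytes, microglia, mural cells, meningeal cells and blood passed 1.5-fold. Oligodendrocyte and myelin genes had a median of 0.09, with 18 of 21 above 0 and Aspa, the enzyme that splits N-acetylaspartate, highest at 0.76 and 0.28, but the list median was -0.01 on array 1 and 0.22 on array 2. Haemoglobin Hbb had -0.32 and 0.33 at the high dose, so the high-dose arrays gave no common sign, but -1.57 and -0.64 at the low dose. Medians of the other lists were 0.01 for astrocytes, 0.06 for microglia, 0.01 for mural cells and -0.05 for meningeal cells. Oxt, the oxytocin precursor of hypothalamic neurons, was highest among hypothalamic neighbours, at 0.60 and 0.50, with -0.19 at the low dose. Parvalbumin (Pvalb) had 0.48 and 0.21, and the neurotrophin receptor Ngfr of cholinergic basal forebrain neurons 0.38 and 0.23.

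**Figure D5:**
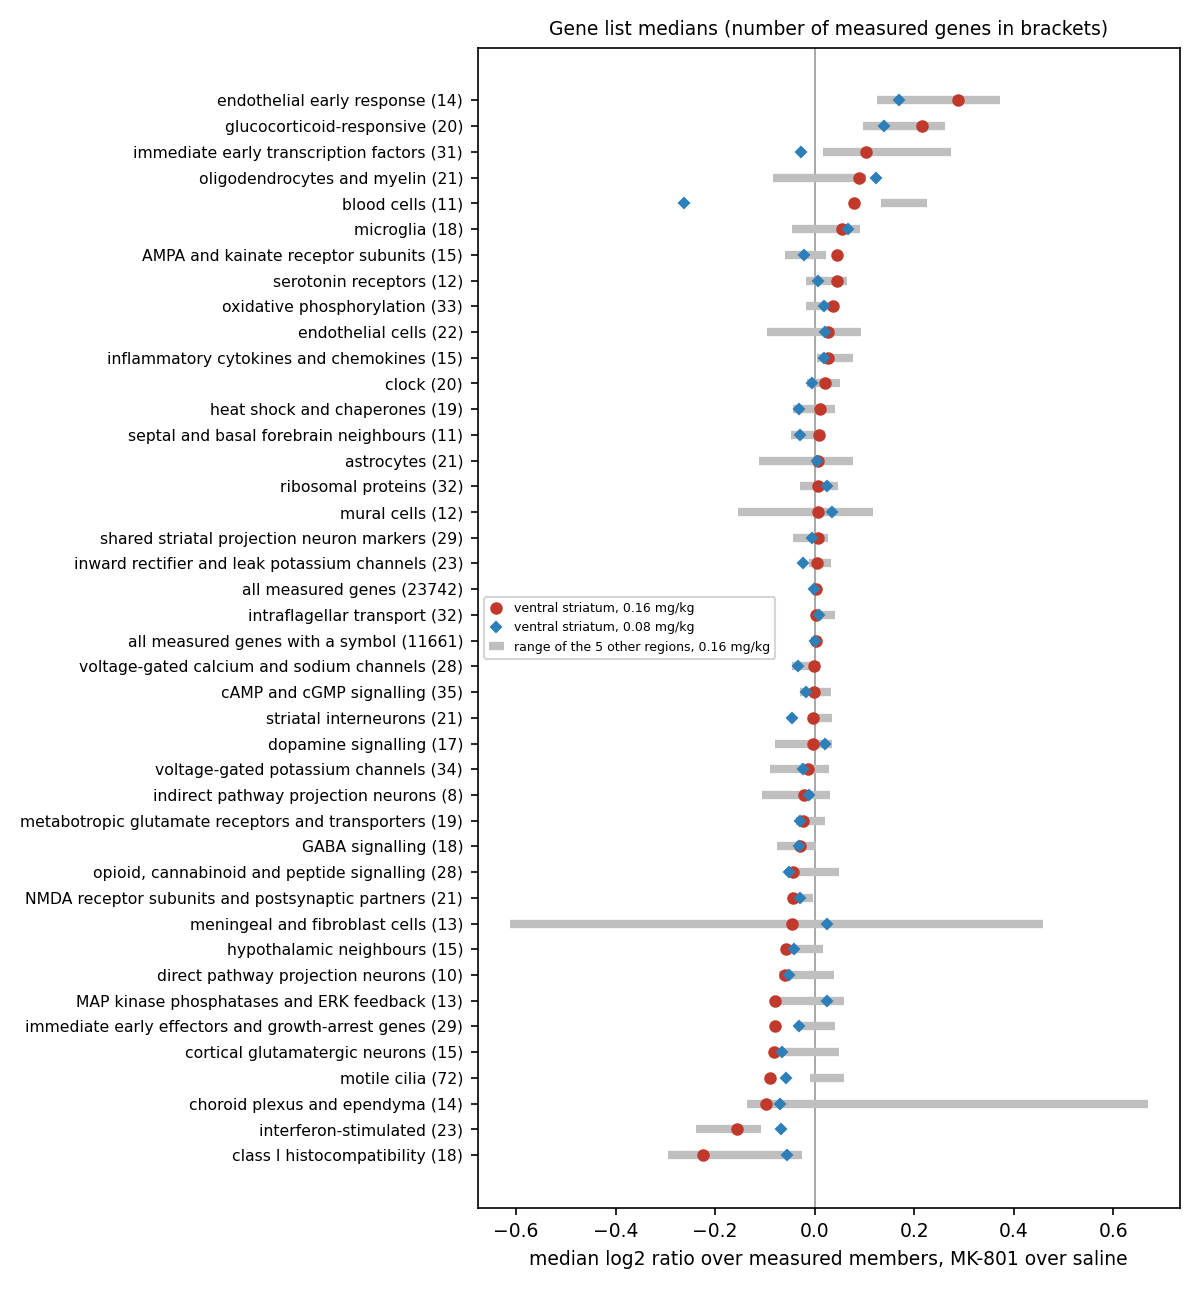
Median log2 ratio (x axis) over the measured members of each gene list (y axis, number of genes in brackets) in the ventral striatum at 0.16 mg/kg (red circles) and 0.08 mg/kg (blue diamonds), with grey bars for the range of the other 5 regions at 0.16 mg/kg. The highest median is 0.29 for endothelial early response genes (0.022 with no filter on dim probes, where the glucocorticoid-responsive list has 0.21), and the lowest is -0.22 for class I histocompatibility genes, beside 0.003 for all measured genes.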

How the data were processed

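The scanner files deposited by the authors hold spot intensity and local background for both channels, unlogged, from Agilent Feature Extraction 9.5.3.1 per the file headers and the submitters' processing notes. The value table the authors deposited holds log10 of treated over saline, which matched the scanner software's processed signals within 0.01 in 100% of spots once swapped arrays were turned. Here mean signals were background-corrected (normexp, offset 50) and normalised by loess within each array in limma 3.58.1 (R 4.3.3, the data.table package, version 1.17.8), control spots having weight 0. Outlier spots were left out, spots of a probe averaged, and the brightest probe taken for a gene. Ratios are on the log2 scale, and an offset compresses those of dim probes. Names were updated through a GRCr8 gene table. Of 41012 probes, 20912 kept the name in the file. Probe coordinates are those in the files (rn3). Genes named are the 15 highest and 15 lowest past 1.5-fold, up to 10 each way past adjusted p 0.05 against the other regions and 6 each way for the dose step, all members of each list past 1.5-fold with its highest and lowest member, and a fixed set of early response, striatal, receptor and interferon genes. Members and lists were chosen with earlier results of these data known. Tests were limma's, with Benjamini-Hochberg adjustment over all genes tested, and their p-values measure only the spread between regions. Precision is limited by the number of arrays. Alternatives changed the background, normalisation, filter, probe choice, fold, arrays, regions, scan-day block and variance model.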

Additional observations from a re-analysis of the deposited data

Results flagged for a closer look

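Of the genes with a symbol, 7 differed between the ventral striatum and the other 5 regions in the limma fit (adjusted p under 0.05, n = 1 region against 5), all with lower ratios in the ventral striatum. The differences on the log2 scale were -1.09 for Cfap144, -0.89 for Dynlrb2, -0.83 for Sh2d5, -0.81 for Drc12, -0.68 for Foxp3, -0.61 for Trim54 and -0.58 for Dnah1. Cfap144, Drc12 and Dnah1 encode parts of motile cilia, and Dynlrb2 a dynein light chain that was placed in the motile cilia list. Their brightest probes had negative ratios on both arrays, but the second probe of Dnah1 had 0.26 and -0.12, and with the mean over probes its difference was -0.26 (limma adjusted p = 0.87). The brightest Dnah1 probe was well above background in the treated channel on only 1 array. Sh2d5 and Foxp3 had spots in the block of low spots of array 2 and array 1 ratios of -0.23 and -0.08. The difference between regions cannot be told apart from a difference between slides.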

How the results depend on the processing

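The counts depend on the processing. At 1.5-fold, 33 genes were higher and 29 lower with a normexp offset of 16, 155 and 98 with the processed signals, and 150 and 94 with the deposited table, against 21 and 18; at 2-fold the counts were 11 and 3, and 10 genes were lower when each array had to pass. A single array gave 41 to 80 higher and 45 to 59 lower. Of the 21 higher genes, 21 were higher again with the processed signals and 16 with median centring, and of the 18 lower genes 16 and 13. The 18 genes that differed from the other regions became 0 with median centring or scan day as a block, 1 with the processed signals or the deposited table, 3 to 10 with a single array, 8 to 11 without cortex, hippocampus or hypothalamus (23 without midbrain), and 8 without the block of spots on array 2, an alternative chosen after the data were seen. The cause of these changes was not tested. For the dose step the count was 4 in place of 0 with the offset of 16. Foxp3 and Sh2d5 changed sign with the processed signals (0.52 and 0.10) and the deposited table (0.51 and 0.10). Their differences from the other regions became 0.46 and 0.17, and 0.46 and 0.17. The other named genes past 1.5-fold kept their sign under every alternative run. No paired test within a group was possible because each group has 1 dye-swapped pair, whose numbers stand for dye orientation. The dose step was taken as high minus low within each region. Dim probes limit precision: 23742 of 35525 features were measured.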
